A study of Mus musculus with 2 samples.

Results

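The 10 genes described here mark the functional states of macrophages: Nos2 and Tnf for inflammatory cells, Retnla, Arg1, Mrc1, Chil3, Il4ra and Il10 for alternatively activated cells, and Folr2 and Lyve1 for resident cells. They were chosen by symbol, as the probe sets annotated to each name, and make up 10 of 19938 genes with a probe set of their own. All 10 were found, each on 1 probe set. RNA came from regenerating tibialis anterior muscle of mice on a mixed 129Sv/C57BL6 background, aged 2 to 4 months and of both sexes, harvested on day 7 after 50 µl of 10 µM cardiotoxin, a venom peptide that destroys muscle fibres, had been injected into the right muscle. One pool held equimolar RNA of 5 Mef2a -/- mice and the other that of 5 Mef2a +/+ mice, both injured, and each pool was measured on 1 array. MEF2A is a transcription factor of muscle and other tissues. The labels used here do not say which part of the gene is deleted or in which cells.

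With 1 array per genotype there is no replicate error, no test and no p-value: each statement below compares these 2 arrays. Values are log2 RMA values as deposited, and each difference is the labelled knockout (KO) pool minus the wild type (WT) pool. The median of all values in the table, 4.40, served as a floor, and the 11787 genes with at least 1 value at or above it are called measurable. Over these genes the median difference was 0.03 and its robust SD 0.28. As a guide to probe error alone, the differences of 2 probe sets for the same gene lay a median of 0.111 apart (488 genes), with 95% of gaps under 0.491. This leaves out the variation among mice and from array to array. Mef2a itself read 9.06 in the labelled KO pool and 8.92 in the WT pool, so it does not check the genotype labels, and the direction of every difference rests on them.

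Macrophages clear damaged fibres after injury and then support their repair. Interferon gamma and microbial products induce nitric oxide synthase and TNF, a state called inflammatory or M1, while interleukin 4 and interleukin 13 act through the IL-4 receptor alpha chain and STAT6 to induce the alternatively activated or M2 genes. Resident macrophages of many tissues carry the folate receptor FOLR2 and the hyaluronan receptor LYVE1. In regenerating muscle the inflammatory state comes first and the repair state follows.

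The genes did not move as 1 block. At the 1.5-fold limit, 5 of the 10 were higher in the labelled KO pool (Mrc1, Il4ra, Folr2, Tnf and Lyve1), 1 was lower (Retnla) and 4 lay within it. Past the same limit lay 6.45% of all measurable genes on the higher side and 1.90% on the lower. At 2-fold, 0 of the 10 were higher and 1 lower (Retnla), and the shares of measurable genes were 1.70% and 0.187%. Near the floor, among the 2035 measurable genes with a mean between 4 and 5, the 1.5-fold shares were 5.55% and 3.93% and the 2-fold shares 1.47% and 0.197%. Genes with a mean under the floor are in this set only if their 2 values differ enough, so the floor affects these shares. The 4 genes within the limit, Nos2, Arg1, Chil3 and Il10, were also the 4 whose values stayed below the floor in both pools. Mrc1, Il4ra and Folr2 reached the floor in both pools. Tnf and Lyve1 reached it in the labelled KO pool only and Retnla in the WT pool only, so for these 3 the passing value was the higher one, and with values below the floor set to it Tnf lay within the limit. The plot of values by pool shows the opposite placing of Retnla and Mrc1.

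**Figure D1:**
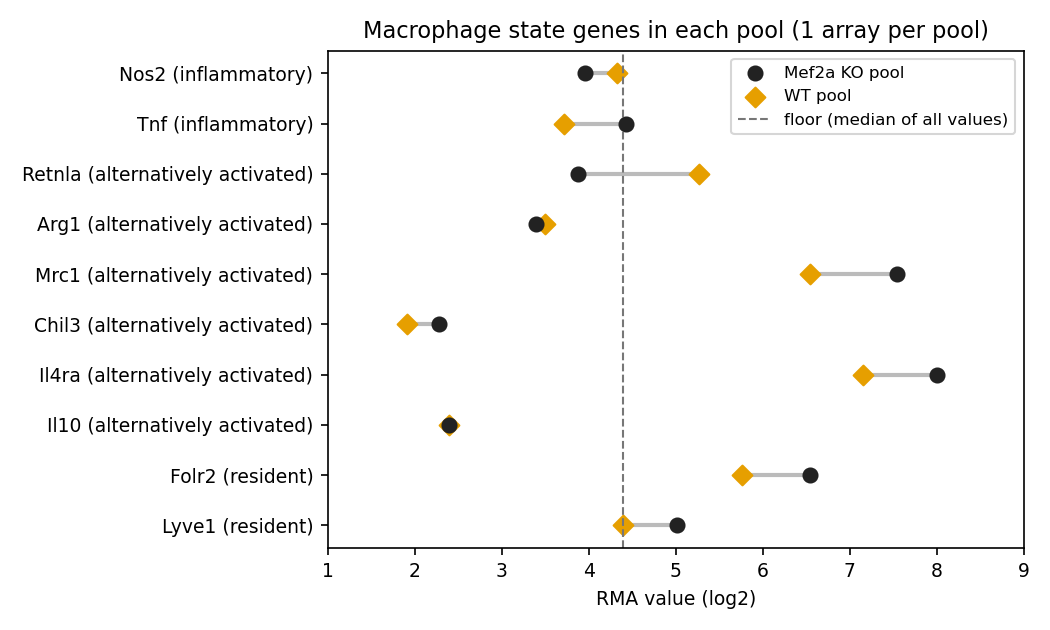
RMA values (log2, horizontal axis) of the 10 genes in the Mef2a KO pool (circles) and the WT pool (diamonds), 1 array each, with a grey bar joining the values of a gene and a dashed line at the floor of 4.40. Retnla is lower in the KO pool (3.88 against 5.26), Mrc1, Il4ra and Folr2 lie to the right of the floor in both pools and are higher in the KO pool, and the values of Il10 coincide.

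Retnla encodes RELM alpha, also called FIZZ1, a small secreted protein that interleukin 4 and interleukin 13 induce in mouse macrophages through STAT6. It read 3.88 in the labelled KO pool and 5.26 in the WT pool. The difference was -1.38, or 2.61-fold lower, and 2 of the 11787 measurable genes had a lower one. Its KO value was below the floor, so it counts as measurable only through the WT pool, where it is high, and the size of the fold is poorly bounded. With all values below the floor set to it, an alternative chosen after the data had been seen, Retnla differed by -0.87, or 1.82-fold lower, and 32 measurable genes had a lower difference. Among the 2235 measurable genes whose mean lay within 0.5 of that of Retnla, 9 (0.403%) had a difference as large as the deposited one in either direction. Those with a mean below the floor were measurable only through a large enough difference, which affects this share. RMA values compress differences at these levels. As a guide, olfactory receptor genes mostly read low here, with a 95th percentile of 3.54 over both pools. Of these 1027 genes, 98.0% read lower than Retnla in the labelled KO pool, and 99.7% did in the WT pool.

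The promoter of Retnla is shown because Retnla was the 1 gene of the 10 past the 1.5-fold limit on the lower side. Promoter sequences were taken from RefSeq (GRCm38.p6) and run from 250 bases before to 50 bases after the annotated start. Of the 10 genes, 6 had an entry: Retnla, Mrc1, Chil3, Il4ra, Tnf and, with both of its starts, Folr2. Nos2, Arg1, Il10 and Lyve1 had none. The Retnla promoter lies at chr16:48842359-48842658 on the plus strand, and capitals mark its match to the STAT6 motif TTCNNNNGAA.
Retnla: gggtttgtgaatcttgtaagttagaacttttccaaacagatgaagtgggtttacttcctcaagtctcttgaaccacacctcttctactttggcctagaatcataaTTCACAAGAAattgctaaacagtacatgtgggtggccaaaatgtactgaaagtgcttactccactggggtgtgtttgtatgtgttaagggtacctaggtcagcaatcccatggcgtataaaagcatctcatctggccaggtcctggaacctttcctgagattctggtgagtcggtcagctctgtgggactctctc
The match begins 145 bases before the start. A C/EBP motif (TTNNGNAAT) on the other strand follows it directly, 135 bases before the start, without overlap. The letters of the STAT6 motif occur in 6.95% of the 32851 promoters of this length in the table and those of the C/EBP motif in 11.5%, on either strand. Of the 6 genes with an entry, Retnla was the 1 with a STAT6 match. The C/EBP motif was not particular to Retnla, since Chil3 had a match 28 bases before its start. These are matches of letters in a short window, not sites shown to be bound.

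Mrc1 encodes CD206, the macrophage mannose receptor, which takes up glycoproteins and is a marker of alternatively activated and of many resident macrophages. It read 7.54 in the labelled KO pool and 6.54 in the WT pool, a difference of 0.997, or 1.996-fold, just short of the 2-fold limit. It was the highest difference of the 10, and 201 of the 11787 measurable genes (1.71%) differed by more. As deposited, Mrc1 lay 2.38 log2 units above Retnla in difference, although both are read as markers of the same state. With values below the floor set to it, Retnla was at -0.87 and Mrc1 still at 0.997, so the size of this gap is poorly bounded.

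The promoter of Mrc1 is given for comparison with that of Retnla. It lies at chr2:14229164-14229463 on the plus strand, and capitals mark the core motif GAGGAA of PU.1, the myeloid factor encoded by Spi1, which lies on the other strand at each match. This motif was added after the sequences had been seen.
Mrc1: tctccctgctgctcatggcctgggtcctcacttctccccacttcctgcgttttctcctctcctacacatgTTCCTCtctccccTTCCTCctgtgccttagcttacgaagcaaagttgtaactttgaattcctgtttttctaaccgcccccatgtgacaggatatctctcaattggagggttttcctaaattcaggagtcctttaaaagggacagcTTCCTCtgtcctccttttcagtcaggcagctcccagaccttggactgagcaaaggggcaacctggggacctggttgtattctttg
The 3 matches begin 180, 167 and 35 bases before the start. At least 1 match was found in 28.3% of all promoters in the table and 3 or more in 0.685%. The motif was chosen with the sequences known and the cut at 3 is the count of Mrc1 itself, so the shares only describe this promoter. Retnla and Tnf had 1 match each. Spi1 itself read 6.69 in the labelled KO pool and 5.62 in the WT pool, and a part of PU.1 in the difference of Mrc1 was not tested.

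Il4ra encodes the alpha chain that the receptors for interleukin 4 and interleukin 13 share. It read 7.997 in the labelled KO pool and 7.16 in the WT pool, a difference of 0.84 or 1.79-fold. Of measurable genes, 2.74% differed by more. The ligand genes themselves were below the floor, Il4 at 2.06 in the labelled KO pool and 2.45 in the WT pool, and Il13 at 3.75 in the labelled KO pool and 4.26 in the WT pool. Il4ra thus read higher in the pool in which Retnla read lower. Its promoter at chr7:125552021-125552320, on the plus strand, has no STAT6 match and 1 match to the NF-kB motif, in capitals. That match is on the other strand and begins 20 bases after the start. The motif was found in 8.46% of promoters.
Il4ra: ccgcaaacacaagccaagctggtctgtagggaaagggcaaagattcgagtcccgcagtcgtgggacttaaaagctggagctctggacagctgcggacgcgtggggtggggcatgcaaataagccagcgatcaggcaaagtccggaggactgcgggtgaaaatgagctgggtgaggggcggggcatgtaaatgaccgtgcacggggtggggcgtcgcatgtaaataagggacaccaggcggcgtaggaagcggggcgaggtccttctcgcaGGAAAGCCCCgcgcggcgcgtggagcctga

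The other 3 genes of the alternatively activated group were below the floor on both arrays. Arg1 encodes arginase 1, which turns arginine into ornithine and competes with nitric oxide synthase for it. It read 3.40 in the labelled KO pool and 3.50 in the WT pool, a difference of -0.10 that became 0.05 with a trend on mean expression removed. Chil3, which encodes the chitinase-like protein YM1, read 2.28 in the labelled KO pool and 1.91 in the WT pool. Its near-identical relative Chil4 read 1.27 in the labelled KO pool and 1.39 in the WT pool, and the probes may not separate the transcripts. Il10, the gene of the anti-inflammatory cytokine interleukin 10, read 2.39 in both pools. Its 2 values were equal to the last digit, as were those of 1961 of the 35557 probe sets (5.52%). Olfactory receptor genes give a guide to these levels: 95.03%, 70.9% and 74.8% of them were lower than Arg1, Chil3 and Il10, in that order, in the labelled KO pool, and 93.5%, 44.4% and 68.3% in the WT pool. At such levels the arrays do not show whether these genes differed.

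The inflammatory pair lay close to the floor. Nos2 encodes inducible nitric oxide synthase and read 3.95 in the labelled KO pool and 4.32 in the WT pool, a difference of -0.37. Among the 1012 measurable genes with a mean within 0.5 of its own, 31.8% had a difference at least as large in size. A gene with a mean below the floor is measurable only if its 2 values differ enough for 1 to reach it. The floor thus shapes this share and that of Tnf below, and neither shows how common such a gap is. Tnf, the gene of tumour necrosis factor, read 4.43 in the labelled KO pool and 3.71 in the WT pool. The difference was 0.72, or 1.65-fold, with the WT value below the floor, and 0.0354, within the limit, with values below the floor set to it. As deposited, 5.32% of the 827 measurable genes of like mean differed by as much or more in size. Tnf was at least 1.5-fold higher and Nos2 was not. The 2 values of Nos2 lay 0.37 apart in the direction opposite to that of Tnf, but both were below the floor, where a difference cannot be read.

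Both resident genes were higher. Folr2 encodes folate receptor beta, a surface receptor of resident macrophages. It read 6.55 in the labelled KO pool and 5.76 in the WT pool, a difference of 0.79 or 1.72-fold, which 3.28% of measurable genes exceeded. Lyve1 encodes a hyaluronan receptor of perivascular macrophages and of lymphatic vessels. It read 5.02 in the labelled KO pool and 4.39 in the WT pool, where it fell just below the floor, and the difference was 0.62 or 1.54-fold. Of the 2610 measurable genes of like mean, 6.44% differed by at least as much in size, a share that the floor also affects. As deposited, Lyve1 had the smallest difference of the 5 that were higher. With values below the floor set to it, Lyve1 stayed at 0.62 and Tnf was smaller at 0.0354. Ordered by their difference, the 10 genes ran Mrc1, Il4ra, Folr2, Tnf, Lyve1, Chil3, Il10, Arg1, Nos2 and Retnla. The first 5 span 0.38 log2 units, and with no replicates their order among themselves cannot be told from error.

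**Figure D2:**
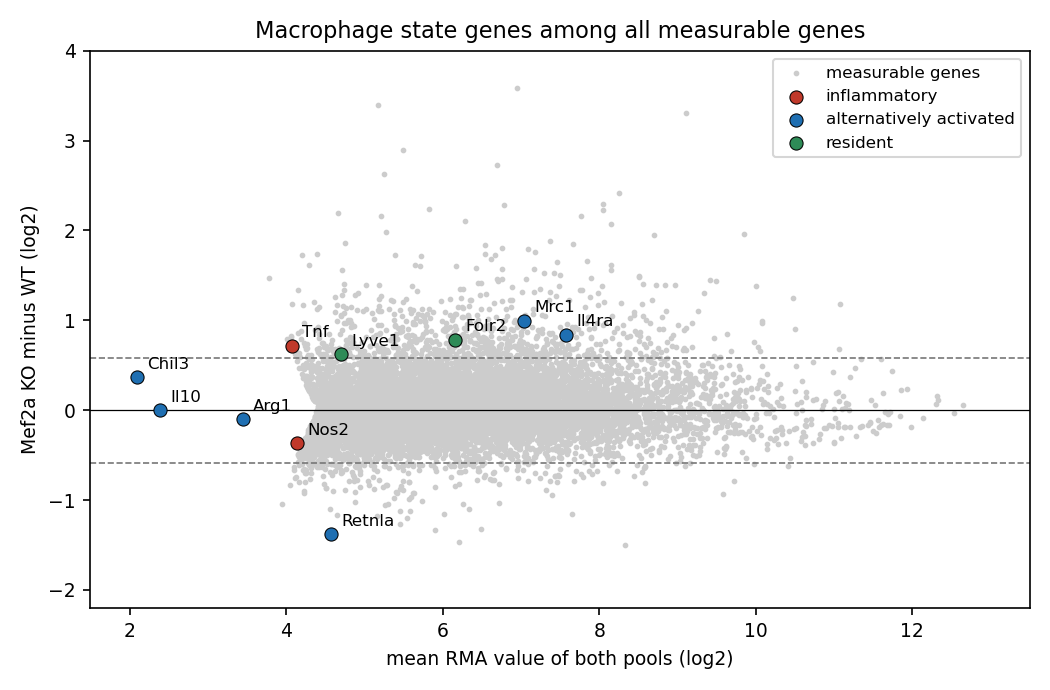
Difference between the pools (Mef2a KO minus WT, log2, vertical axis) against the mean of both pools (log2, horizontal axis) for the 11787 measurable genes in grey and the 10 macrophage state genes in colour by role. Dashed lines mark 1.5-fold. Retnla lies at the lower edge of genes of its mean, Mrc1, Il4ra and Folr2 lie above the upper dashed line, and Nos2, Arg1, Chil3 and Il10 lie between the lines, left of most measurable genes.

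General macrophage genes were higher in the same RNA, and the 10 genes can be read beside them. Of 24 general macrophage and monocyte genes, none of which is among the 10, all 24 reached the floor in both pools. At least 1.5-fold higher were 20, against 6.45% of all measurable genes, and 12 of these at least 2-fold, against 1.70%. Like the other lists, this one was chosen with earlier results of these data known. Its counts and median thus only describe these 2 arrays and are no test. Of the 24, 0 were lower. Their mean value was 8.40 in the labelled KO pool and 7.36 in the WT pool, and their median difference was 1.04, against 0.03 for all measurable genes. The largest differences were those of the integrin chain gene Itgam (1.80), Lgals3, which encodes galectin 3 (1.62), the endotoxin co-receptor gene Cd14 (1.61) and Cd53 (1.56). Adgre1, the gene of F4/80, differed by 0.90, Csf1r, that of the macrophage growth factor receptor, by 0.80, and Cd68 by 1.45. In whole muscle RNA, more macrophages and more RNA of these genes per macrophage cannot be told apart. The part of cell number in the differences of the 10 genes was not tested.

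Set against the median of these 24 genes, Mrc1 lay at -0.04, Il4ra at -0.19, Folr2 at -0.25, Tnf at -0.32 and Lyve1 at -0.41 log2 units. As deposited, each of these 5 differences lay inside the range of the list, 0.04 to 1.80, but with values below the floor set to it Tnf was below all 24. Retnla lay at -2.42, or at -1.90 with values below the floor set to it, and below all 24 genes of the list in both cases. Its KO value is under the floor, so neither value gives its size closely. Nos2 (-1.40), Arg1 (-1.14) and Il10 (-1.04) were also below all 24 and Chil3 (-0.67) below 22, but these 4 values come from genes under the floor in both pools. All 10 genes lay below the median of the list, Mrc1 by less than the usual gap between 2 probe sets of a gene. With a trend on mean expression removed the values for Mrc1 and Retnla were -0.05 and -2.29.

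**Figure D3:**
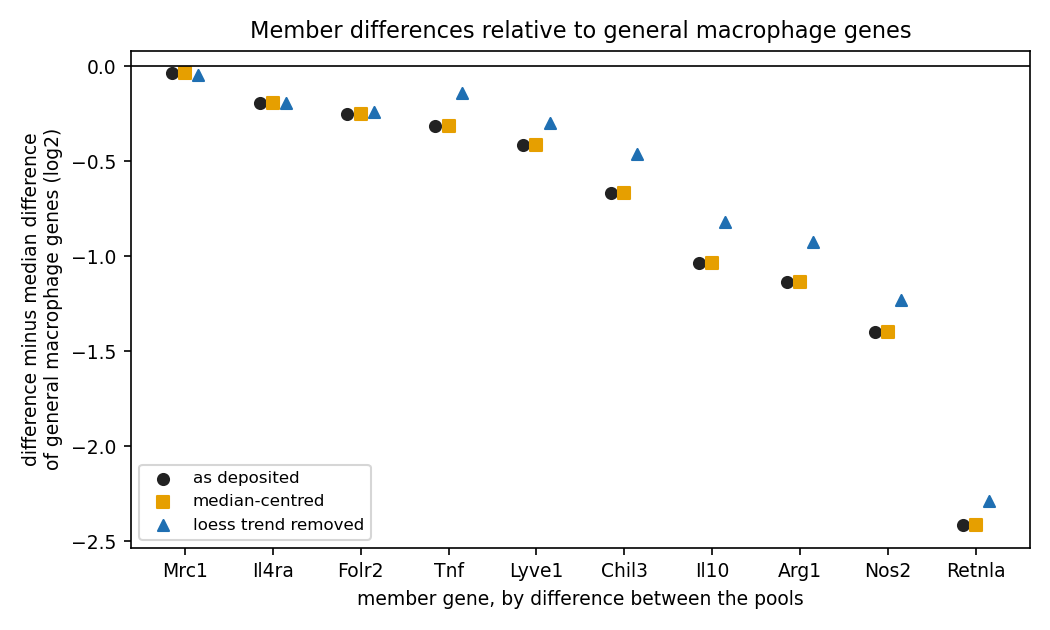
Difference of each gene minus the median difference of the 24 general macrophage genes (log2, vertical axis), with genes ordered by their difference between the pools, for values as deposited (circles), median-centred (squares) and with a loess trend removed (triangles). Mrc1 lies close to 0 at -0.04, all 10 genes lie below 0 under each of the 3 settings, and Retnla is the lowest at -2.42 for the deposited values.

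Other genes of each state gave counts of the same kind. Of 24 measured alternatively activated genes outside the 10, 13 reached the floor, 4 were at least 1.5-fold higher and 0 lower, and the median was 0.36. Of all measurable genes, 6.45% were past this limit on the higher side and 1.90% on the lower. The 4 were Msr1, a scavenger receptor gene (7.34 in the labelled KO pool, 5.24 in the WT pool), Clec7a, the gene of the beta-glucan receptor dectin-1 (1.07), the transcription factor gene Egr2 (0.91) and Cd163, the gene of the haemoglobin scavenger receptor (0.67). Several of these, Msr1 and Clec7a among them, are widely expressed in macrophages. The interleukin 4 induced genes Ccl17, Ccl22, Ccl24, Pdcd1lg2 and Chil4 were below the floor in both pools, and Mgl2 differed by -0.06. None of the measurable genes of this list was as low in difference as Retnla, the lowest being Flt1 at -0.11.

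Of 18 measured inflammatory genes outside the 10, 10 reached the floor. At 1.5-fold, where 6.45% of all measurable genes were higher and 1.90% lower, 3 of these were higher and 0 lower. Their median was 0.30. That median was 0.08 with the floor on the mean of the pools, 0.16 when the probe sets of a gene were averaged and 0.03 with no floor. The 3 were Ptgs2, the gene of cyclooxygenase 2 (0.66), the transcription factor gene Irf5 (0.65) and Cd86 (0.64), which encodes a co-stimulatory ligand and read 3.84 in the WT pool, below the floor. Cd80, its relative, differed by 0.53. Il1b, Il6, Il12a, Il12b and Il23a, the cytokine genes of this state, were below the floor in both pools. Cxcl9 and Cxcl10, chemokine genes induced by interferon gamma, differed by -0.25 and -0.28. The measurable inflammatory genes of this list thus held values on both sides of 0, 6 above and 4 below. Of all measurable genes, 53.3% were above 0, so this split is not set apart. Tnf and Nos2 lay on opposite sides of 0 only as deposited, with both values of Nos2 and the WT value of Tnf below the floor.

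Of 24 measured resident and perivascular macrophage genes outside the 10, 17 reached the floor, 5 were at least 1.5-fold higher and 0 lower, with a median of 0.23. The shares of all measurable genes past this limit were 6.45% and 1.90%. F13a1, the gene of a coagulation factor chain made by macrophages, was 2.49-fold higher (7.82 in the labelled KO pool, 6.51 in the WT pool). Colec12 (0.67), Cd163 (0.67), Cbr2 (0.63) and the scavenger receptor gene Stab1 (0.63) were the others, and with the trend on mean expression removed 3 genes of the list were past the limit. Timd4, which marks resident cells of embryonic origin together with Folr2 and Lyve1, was below the floor in both pools (2.73 in the labelled KO pool, 3.21 in the WT pool), as were Vsig4 and Cd5l. Slc40a1, the gene of the iron exporter ferroportin, differed by -0.41.

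**Figure D4:**
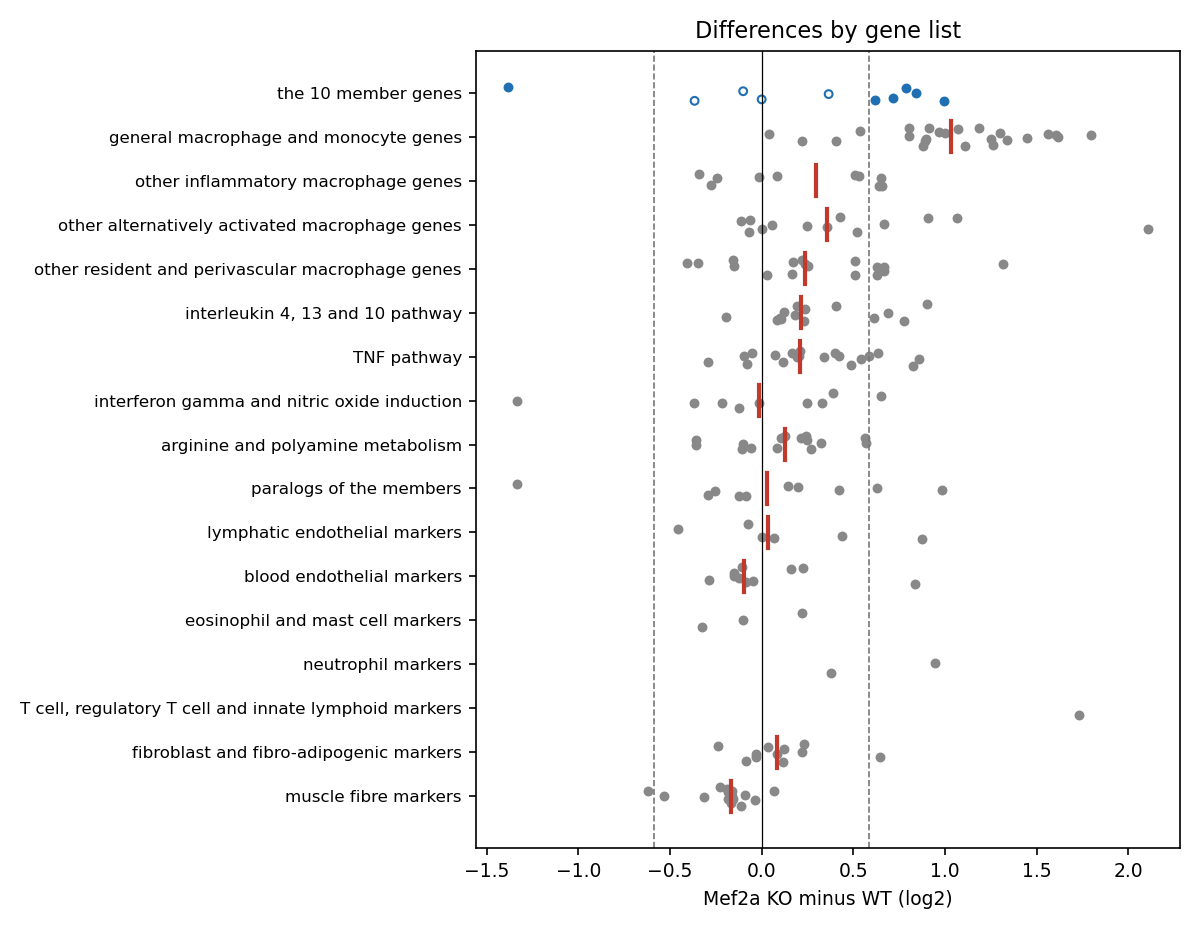
Differences between the pools (Mef2a KO minus WT, log2, horizontal axis) for the 10 genes, filled where they reach the floor and open where they do not, and for the measurable genes of 16 other lists. Red bars are medians of lists with at least 5 such genes and dashed lines mark 1.5-fold. The general macrophage list has the highest median of the lists with a bar (1.04), and the muscle fibre list the lowest (-0.17).

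The receptor chains around these genes were measured more clearly than the ligands. In the interleukin 4, 13 and 10 pathway 14 of 17 measured genes reached the floor, 4 were at least 1.5-fold higher and 0 lower, with a median of 0.21. Among all measurable genes the shares were 6.45% and 1.90%. Il10rb, a chain of the interleukin 10 receptor, differed by 0.90 and its partner Il10ra by 0.41. Il13ra1, which pairs with the IL-4 receptor alpha chain, differed by 0.77 and read 6.88 in the labelled KO pool and 6.11 in the WT pool. Stat6, the factor downstream of that receptor, read 7.25 in the labelled KO pool and 6.64 in the WT pool. Its difference was 0.61, or 0.55 and under 1.5-fold with the trend on mean expression removed. Ptpn6, the gene of the phosphatase SHP-1, differed by 0.69. Il4ra, Il13ra1 and Stat6 all read higher in the pool in which Retnla read lower. Signalling in the cells that make Retnla was not measured, and a link between these differences was not tested.

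On the inflammatory side, 19 of 20 measured TNF pathway genes reached the floor, with a median of 0.21. At 1.5-fold, where 6.45% of all measurable genes were higher and 1.90% lower, 0 of the 19 were lower and 3 were higher. The 3 were Tnfrsf1b, the gene of TNF receptor 2 (0.86), Tnfaip3, which encodes the NF-kB inhibitor A20 (0.82), and Adam17, the gene of the protease that releases TNF (0.63, or 0.58 and under 1.5-fold with the trend removed). Birc3 lay at the limit with 0.58, and Tnfrsf1a, the gene of TNF receptor 1, differed by 0.40. Ifng was below the floor, and its receptor gene Ifngr1 differed by 0.65. The related synthase gene Nos1, which muscle fibres use, was 2.52-fold lower in the labelled KO pool (5.24, against 6.57 in the WT pool), and the endothelial synthase gene Nos3 differed by -0.12. In arginine and polyamine metabolism 0 of 15 measurable genes passed 1.5-fold in either direction as deposited. With 6.45% and 1.90% of all measurable genes past it, a count of 0 in so short a list is not set apart. Sat1 and Slc7a7, each at 0.57 (0.60 and past the limit when median-centred), were the highest and Oaz2 and Agmat, each at -0.36, the lowest.

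Markers of other cells that can express these genes were measured in the same RNA. Of 12 eosinophil and mast cell genes, 3 reached the floor, Kit (0.22), Tpsb2 (-0.10) and Mcpt4 (-0.33), and the defining eosinophil genes Epx, Prg2, Ccr3 and Il5ra were below it in both pools. The mean value of all 12 was 3.27 in the labelled KO pool and 3.38 in the WT pool. The lymphatic endothelial list, which bears on Lyve1, had a median of 0.03 (-0.03 with the trend removed) over 6 measurable genes. These were Prox1 at -0.45, Pdpn at 0.44, Nrp2 at 0.88, Pecam1 at 0.06, Tie1 at -0.07 and Tek at 0. Not all of them are specific to lymphatic vessels, so this median does not describe those vessels alone. Flt4 was below the floor and equal in both pools at 4.38. The mean value of the 9 measured genes was 5.61 in the labelled KO pool and 5.58 in the WT pool. Blood endothelial genes had a median of -0.09 with Vwf at 0.84. T cell genes were below the floor except Il7r (7.53 in the labelled KO pool, 5.80 in the WT pool). Of 12 neutrophil genes Lcn2 (0.94) and Csf3r (0.38) reached the floor. Fibroblast genes had a median of 0.08, with Il33 at 0.65. Muscle fibre genes had a median of -0.17, with 14 of 15 below 0 by any amount, against 44.5% of all measurable genes. At least 1.5-fold lower was 1 of the 15, Myh2 at -0.62, against 1.90% of all measurable genes. Except for the levels given, the part of these cells in the differences of the 10 genes was not tested.

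Of the 5 genes that were higher, 3 (Il4ra, Folr2 and Lyve1) lie on chromosome 7, as Mef2a does. Of the 11787 measurable genes, 928 lie on chromosome 7, these 3 among them. Their median difference was 0, with 6.47% past 1.5-fold on the higher side and 1.72% on the lower. Of the 264 other measurable genes that the reference places between Mef2a and Il4ra on that chromosome, 7.95% passed 1.5-fold on the higher side and 2.65% on the lower, against 6.45% and 1.90% of all measurable genes. The median difference of these 264 genes was 0.04, against 0.03 over all. Retnla, on chromosome 16, and Mrc1, on chromosome 2, lie elsewhere.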

How the data were processed

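The table has 35557 probe sets and a column for each of 2 arrays. Per the submitters' processing notes, the authors used RMA and Affymetrix Expression Console, and the deposited values are on the log2 scale. Program versions were not stated. RMA corrects background, equalises the distributions of the arrays and summarises probes, so a change shared by most genes cannot be seen. No detection calls were used, and the number of arrays limits the precision.

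Probe sets were named by the platform annotation: 21789 had 1 symbol, 1621 several and 12147 none. The last 2 kinds were left out. Of the 21789, 21698 matched a RefSeq gene of GRCm38.p6 by identifier, with the same symbol. The highest-mean probe set stood for a gene (999 genes had several). Differences were computed in Python 3.11.15 with pandas 2.3.3, numpy 2.4.6 and, for loess (span 0.3), statsmodels 0.14.6. Counting, trend removal and motif search were tested on simulated data. The gene members and the 16 lists were chosen with earlier results of these data known. All 10 members were named, with up to 4 genes per list of largest absolute difference at the floor, fixed receptors, ligands and markers, and, chosen after their values were seen, the remaining list genes. Alternatives were median-centring, loess, other probe set rules, floors and a 2-fold limit, and, added after the data were seen, values below the floor set to it.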

Additional observations from a re-analysis of the deposited data

How the results depend on the processing

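Under median-centring, loess, the mean or lowest-mean probe set, and probe sets with several symbols, each of the 10 genes kept its side of the 1.5-fold limit and moved by less than the robust SD of 0.28. The last 3 could not change them, since each gene has 1 probe set. Retnla ran from -1.38 to -1.31 and Mrc1 from 0.93 to 1.03, while Arg1 changed sign (-0.10 to 0.05) within the limit. With values below the floor set to it, chosen after the data had been seen, Tnf lay within the limit at 0.0354, Retnla was at -0.87, and Nos2 and Chil3 were at 0.00 by construction. Relative to the general macrophage median, that setting gave -1.90 for Retnla, -0.9997 for Tnf, -1.04 for Nos2 and -1.04 for Chil3, and Chil3 was at -0.47 with the loess trend removed. Over all measurable genes, 618 were lower with no floor, against 224, and 94 with a floor at the 75th percentile. With a 2-fold limit 200 were higher and 22 lower, and the genes higher numbered 12 in the general macrophage list, 0 in the inflammatory, 2 in the alternatively activated and 1 in the resident list. With the floor at the 75th percentile the inflammatory list had 1 gene higher and a median of 0.58 (against 0.30, and 0.03 to 0.33 under the other settings), and the alternatively activated list 2 genes higher. With no floor the alternatively activated list had 1 gene lower. Median-centring put 2 arginine and polyamine genes past the limit, against 0. With the loess trend removed the resident list had 3 genes higher. The T cell list's median of 1.73, over 1 gene, turned to -0.19 with no floor, which adds its 10 genes below the floor. The other floors and the 2-fold limit change how many genes are counted, and for the loess moves the cause was not tested. No paired analysis was possible because there is 1 array per genotype. Leaving out a replicate was not possible for the same reason. Values under the floor limit what can be said of Nos2, Arg1, Chil3 and Il10.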

Other observations

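Among relatives of the 10 genes in sequence or function, 20 were measured and 10 reached the floor, with a median difference of 0.03. Cd44, a hyaluronan receptor gene like Lyve1, was 1.98-fold higher (7.40 in the labelled KO pool, 6.42 in the WT pool), and Mrc2, the gene of a collagen uptake receptor related to the mannose receptor, differed by 0.42. Of the relatives of Retnla, Retn differed by 0.14. Retnlb (1.30 in the labelled KO pool, 1.79 in the WT pool) and Retnlg (2.68 in the labelled KO pool, 2.53 in the WT pool) were below the floor, where a difference cannot be read. Folr1, the relative of Folr2, differed by -0.08 and Arg2, the second arginase, was below the floor in both pools.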
